A study of Homo sapiens with 6 samples.

Results

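The SPARC family and the matricellular and adhesive glycoproteins studied with it were taken as 10 listed genes, which were looked up by Entrez identifier in the gene counts of PC3 cells with and without GCNT1 overexpression. Of the 10 genes, 7 were analysed (SPARC, SPOCK1, FSTL1, TNC, THBS1, FN1 and MATN3), out of 12703 genes in all, and SPOCK2, SMOC1 and SMOC2 were not analysed here. PC3 cells are an established line that was grown from a bone metastasis of human prostate cancer. The control group was 3 PC3 lines stably transduced with Lenti-ORF negative-control particles, and the GCNT1 overexpression group (GCNT1 OE) was 3 PC3 lines carrying GCNT1 from a lentivirus, the enzyme that adds the GlcNAc which opens the core 2 branch on O-glycans. Whether a line is 1 clone or a pool is not given in the sources used here. Each line gave 1 stranded mRNA library, which the labels call a biological replicate.

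Matricellular proteins are secreted into the extracellular matrix but act mainly on how cells attach to it and receive signals from it, rather than as its scaffold. Members of the SPARC family share a follistatin-like domain and an extracellular calcium-binding domain. SPARC itself (osteonectin) binds collagens and is abundant in bone, SPOCK1 and SPOCK2 (testicans) carry glycosaminoglycan chains, FSTL1 is a secreted follistatin-like glycoprotein, and SMOC1 and SMOC2 are found in basement membranes. FN1 (fibronectin), TNC (tenascin-C), THBS1 (thrombospondin-1) and MATN3 (matrilin-3) are multidomain glycoproteins of the matrix. FN1, TNC and THBS1 are recognised by integrins and other receptors of the cell surface.

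The 6 libraries held between 11392213 and 13825704 counts. GCNT1 itself had 9, 13 and 8 counts in controls and 13, 16 and 35 in GCNT1 OE, an edgeR log2 fold change of 0.98 (SE 0.37, Benjamini-Hochberg adjusted p = 0.0362). Without GCNT1 OE replicate 3 it was 0.49 (adjusted p = 0.269 in the same edgeR test), and without control replicate 1 or control replicate 3 the adjusted p was 0.0920 or 0.0944. Control 2 and GCNT1 OE 1 had the same count, 13, and the groups did not overlap in CPM. Whether reads from the transduced GCNT1 were counted on this gene is not given in the sources used here, so these counts may not measure the overexpression. The paper checked its GCNT1-overexpressing PC3 cells separately, by real-time PCR, sandwich ELISA and immunocytochemistry. PRUNE2 overlaps GCNT1 on the opposite strand. Of the epithelial markers, 7 of 9 were analysed. Their summed levels were 1125 to 1213 CPM (counts scaled to TMM-adjusted library sizes) in controls and 893 to 1042 CPM in GCNT1 OE, led by KRT8, KRT18, KRT19 and CLDN4. EPCAM and CDH1 were low, with at most 86 counts in a library. By both thresholds used for the members, KRT19 and CDH1 were lower (edgeR log2 fold changes -0.68 and -1.71) and KRT7 was higher (1.65, from 26.0 ± 3.27 to 81.7 ± 14.7 CPM, SD, n = 3 each), and the part of these markers in the members' differences was not tested. Of the 8 fibroblast markers only ACTA2 was analysed, at 1.99 to 2.54 CPM in controls and 2.91 to 4.15 CPM in GCNT1 OE. The endothelial list had 2 of 6 genes analysed (PECAM1 and KDR) and the leukocyte list 1 of 7 (CD68). By both thresholds KDR was lower (edgeR log2 fold change -1.53, from 154 ± 9.43 to 53.1 ± 9.14 CPM). PECAM1 was higher by both (1.31, from 1.77 ± 0.292 to 4.43 ± 0.603 CPM). CD68 was not called, with 89.8 ± 5.74 CPM in controls and 84.4 ± 4.80 CPM in GCNT1 OE (SD, n = 3 each).

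Promoters of the members were looked at because 6 of the 7 analysed genes moved in 1 direction. RefSeq promoter sequences were at hand for 6 of the 7, SPOCK1 being the other. The stretches upstream of the start are shown for the members with large falls and for THBS1, the gene that moved the other way. They are given for hg38, 5′ to 3′ on the gene's strand, without bases that GENCODE places in the gene's own exons, and capitals mark matches to the motifs searched.
SPARC, chr5:151686976-151687165, minus strand: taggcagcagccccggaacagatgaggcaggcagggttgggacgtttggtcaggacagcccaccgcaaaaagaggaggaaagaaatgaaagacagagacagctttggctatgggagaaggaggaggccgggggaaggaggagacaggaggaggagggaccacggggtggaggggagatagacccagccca
FN1, chr2:215436074-215436318, minus strand: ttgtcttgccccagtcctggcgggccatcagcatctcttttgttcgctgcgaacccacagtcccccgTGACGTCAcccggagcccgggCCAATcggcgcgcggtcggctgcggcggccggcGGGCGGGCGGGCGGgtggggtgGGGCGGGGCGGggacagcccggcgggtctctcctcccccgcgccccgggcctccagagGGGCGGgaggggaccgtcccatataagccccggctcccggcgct
MATN3, chr2:20012669-20012918, minus strand: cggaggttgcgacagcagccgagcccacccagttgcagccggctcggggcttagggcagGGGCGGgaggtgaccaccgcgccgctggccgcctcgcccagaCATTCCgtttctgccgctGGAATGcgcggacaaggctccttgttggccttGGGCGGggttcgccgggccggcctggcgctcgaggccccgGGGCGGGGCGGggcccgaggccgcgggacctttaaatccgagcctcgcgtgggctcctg
THBS1, chr15:39580829-39581078, plus strand: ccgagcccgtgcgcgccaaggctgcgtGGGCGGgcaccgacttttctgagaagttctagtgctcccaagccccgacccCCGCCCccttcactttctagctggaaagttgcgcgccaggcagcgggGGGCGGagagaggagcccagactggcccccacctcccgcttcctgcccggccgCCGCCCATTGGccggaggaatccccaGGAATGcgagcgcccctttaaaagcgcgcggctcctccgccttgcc
The motifs searched, on both strands over 250 bases and with overlapping matches counted separately, were the TATA box TATAAA, the CCAAT box, the GC box GGGCGG, the AP-1 motif TGANTCA, the TEAD motif GGAATG, the E-box CACGTG and, added after the FN1 promoter had been read, the cAMP response element TGACGTCA. GGGCGG was found in 5 of the 6 promoters, against 42.6% of all 35116 promoters of that length, which were not matched for their share of G and C. FN1 held 6 matches, THBS1 and MATN3 held 4 each, FSTL1 and TNC held 1 each, and SPARC held none. CCAAT was found in FN1 and THBS1 only among the 6 (32.0% of all promoters), and TGACGTCA in FN1 only among the 6, at 183 bases before the start (1.65% of all promoters). GGAATG was found in SPARC, THBS1 and MATN3 (11.9% of all promoters). The match in SPARC begins 17 bases before the RefSeq start, inside an exon of GENCODE, and so is not in the stretch shown. Exact matches to TATAAA, the AP-1 motif and the E-box were found in none of the 6 windows (10.7%, 6.57% and 6.34% of all promoters). Variants of the motifs were not searched, such as the TATAAG in the stretch shown for FN1, so a TATA box of another form may be present. The share of G and C was lowest in TNC (54.8%) and SPARC (59.2%) and highest in FN1 (76.4%), with a median of 58% over all promoters.

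Expression of 4 of the 7 members was lower with GCNT1 overexpression by both thresholds used here, which were 0.05 for the adjusted p value and 0.58 for the size of the log2 fold change. By that rule 11.1% of all genes tested were lower, 8.28% were higher and 19.3% were called in either direction. The balance over all genes depended on the scaling, with 1052 higher and 1405 lower after TMM and 1283 higher and 1230 lower with library size alone, while the same counts of members, 0 higher and 4 lower, were called with both. These were SPOCK1, SPARC, MATN3 and FN1. FSTL1 and TNC were lower and THBS1 was higher by less than the fold change threshold. By the adjusted p value alone, 6 members were lower and 1 was higher, against 29.3% of all genes lower, 28.3% higher and 57.6% in either direction. The groups did not overlap in any of the 7 (62.5% of all genes), with the 3 GCNT1 OE libraries below all controls in 6 (31.6% of all genes) and above them in THBS1 (30.9% of all genes). The members' median log2 fold change was -1.25, against 0.00095 over all genes tested, and it was the same with SPOCK1 set to its bound. The members and the gene lists used below were chosen with earlier results of these data known. Setting them against all genes is therefore no independent test. In bulk RNA, fewer cells expressing a gene and less RNA per cell cannot be told apart.

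SPARC (Entrez identifier 6678) spans positions 151661096 to 151686915 of chromosome 5 (hg38), on the minus strand, with 10 exons in its canonical transcript. Its normalised level was 483, 355 and 451 CPM in controls 1 to 3 and 105, 126 and 110 CPM in GCNT1 OE 1 to 3. Control 2 was the lowest control and still lay far above the highest GCNT1 OE library. The mean fell from 430 ± 66.7 to 114 ± 10.8 CPM (SD, n = 3 each), 3.78-fold, with an edgeR log2 fold change of -1.92 (SE 0.10, 95% interval -2.13 to -1.70, Benjamini-Hochberg adjusted p = 4.12e-09). The antisense transcript CLMAT3 overlaps it.

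SPOCK1 (Entrez identifier 6695), which encodes testican-1, lies on chromosome 5 from 136975298 to 137499326, on the minus strand, and its canonical transcript has 11 exons. Its counts were 245, 235 and 226 in the control libraries and 2 in every GCNT1 OE library. All 3 GCNT1 OE libraries were under the detection floor of 3 counts used here, so that only a bound can be given. The control mean of 19.2 ± 0.299 CPM (SD, n = 3) was at least 83.2-fold above the mean of the floors of the GCNT1 OE libraries, 0.230 CPM (edgeR Benjamini-Hochberg adjusted p = 1.37e-11). The fitted log2 fold change of -6.89 depends on the small count that edgeR adds.

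FSTL1 (Entrez identifier 11167), on chromosome 3 from 120392293 to 120450992, was expressed at 549, 512 and 521 CPM in controls and 386, 387 and 379 CPM in GCNT1 OE. Both groups were tight, and the lowest control stood well above the highest GCNT1 OE library. The mean went from 527 ± 19.1 to 384 ± 4.09 CPM (SD, n = 3 each), 1.37-fold lower. The edgeR log2 fold change was -0.46 (SE 0.04, 95% interval -0.55 to -0.36, Benjamini-Hochberg adjusted p = 1.42e-06), so the whole interval lay inside the fold change threshold. An antisense long non-coding gene overlaps FSTL1.

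**Figure D1:**
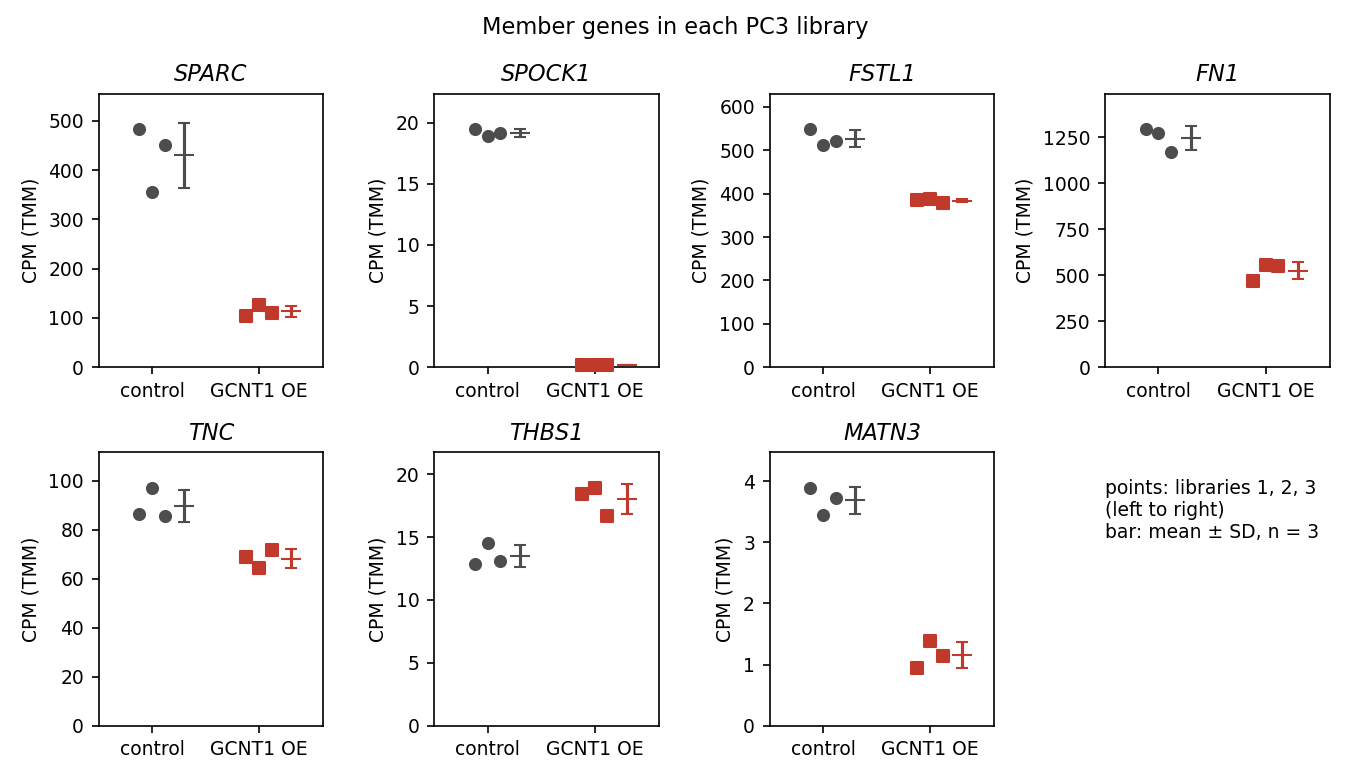
Normalised expression (CPM after TMM scaling, vertical axes from 0) of the 7 analysed members in the 3 control libraries (grey circles) and the 3 GCNT1 OE libraries (red squares), with libraries 1 to 3 from left to right and the mean ± SD (n = 3) beside them. The groups do not overlap in any panel, GCNT1 OE is lower in 6 panels and higher for THBS1, and SPOCK1 is near 0 in GCNT1 OE.

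FN1 (Entrez identifier 2335), which encodes the fibronectin that integrins bind in the pericellular matrix, lies on chromosome 2 from 215360865 to 215436068, on the minus strand, and its canonical transcript has 46 exons. It was the most highly counted member. Its level was 1294, 1273 and 1172 CPM in controls and 470, 557 and 549 CPM in GCNT1 OE, and GCNT1 OE 1 was the lowest of all. The mean fell from 1247 ± 65.2 to 525 ± 48.4 CPM (SD, n = 3 each), 2.37-fold, with an edgeR log2 fold change of -1.25 (SE 0.06, 95% interval -1.38 to -1.11, Benjamini-Hochberg adjusted p = 3.46e-09). FN1 took 0.128%, 0.125% and 0.114% of all counts in the controls and 0.0477%, 0.0571% and 0.0560% in GCNT1 OE. The 7 members together went from 2265 to 2449 CPM in controls to 1048 to 1155 CPM in GCNT1 OE. Of the 6 RefSeq promoters, that of FN1 had the most GC boxes. The counts are per gene, and so do not tell apart the spliced forms of FN1 that include or leave out its extra domains.

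MATN3 (Entrez identifier 4148), a matrilin best known from cartilage, lies on chromosome 2 from 19992052 to 20012668. Its counts were 49, 43 and 44 in controls and 11, 19 and 16 in GCNT1 OE. It was the lowest of the members in the controls per length, and the highest GCNT1 OE library still had fewer counts than the lowest control, 19 against 43. Its mean fell from 3.69 ± 0.222 to 1.16 ± 0.217 CPM (SD, n = 3 each), with an edgeR log2 fold change of -1.65 (SE 0.21, 95% interval -2.10 to -1.21, Benjamini-Hochberg adjusted p = 1.77e-05). Its interval was the widest of the 7. The antisense gene WDR35-DT overlaps it.

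TNC (Entrez identifier 3371), a hexameric glycoprotein that can interfere with attachment to fibronectin, lies on chromosome 9 from 115019575 to 115118157. Its level was 86.5, 97.2 and 85.4 CPM in controls and 68.8, 64.2 and 71.7 CPM in GCNT1 OE. The groups were separate, and the nearest libraries were control 3 at 85.4 CPM and GCNT1 OE 3 at 71.7 CPM. The mean went from 89.7 ± 6.49 to 68.2 ± 3.79 CPM (SD, n = 3 each), an edgeR log2 fold change of -0.39 (SE 0.07, 95% interval -0.54 to -0.25, Benjamini-Hochberg adjusted p = 0.000205). The long non-coding gene DELEC1 overlaps TNC on the opposite strand.

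THBS1 (Entrez identifier 7057), which encodes a trimeric glycoprotein known to activate latent TGF-beta and to bind CD36 and CD47, lies on chromosome 15 from 39581079 to 39599466, on the plus strand, with 22 exons. It was the only member higher in GCNT1 OE. Its counts were 162, 181 and 155 in controls and 213, 260 and 235 in GCNT1 OE, or 12.9, 14.5 and 13.1 against 18.4, 18.9 and 16.7 CPM. The mean went from 13.5 ± 0.900 to 18.0 ± 1.19 CPM (SD, n = 3 each), 1.33-fold, and the edgeR log2 fold change was 0.41 (SE 0.09, 95% interval 0.21 to 0.61, Benjamini-Hochberg adjusted p = 0.00187). The interval included the fold change threshold. FSIP1 overlaps THBS1 on the opposite strand and had 1.19 ± 0.226 CPM in controls and 1.65 ± 0.337 CPM in GCNT1 OE (SD, n = 3 each), and whether the counting used strand is not given in the sources used here. For a single gene, an exact two-sided permutation of 3 and 3 libraries gives p = 0.1 at best. Each of the 7 members reached it, as does every gene whose groups do not overlap (62.5% of all genes).

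**Figure D2:**
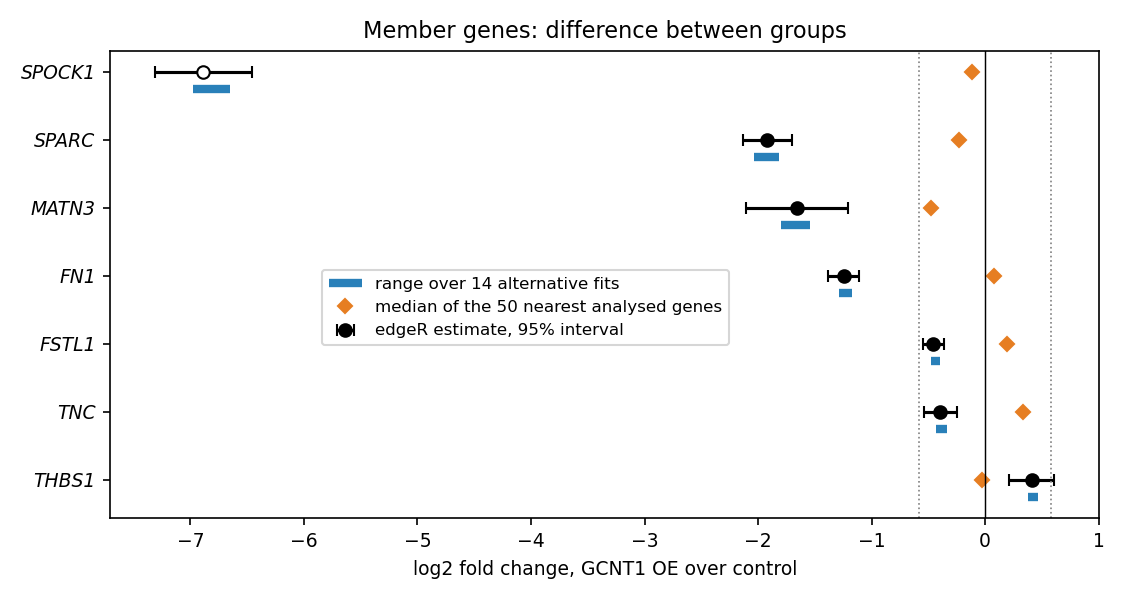
Log2 fold change of GCNT1 OE over control for the 7 members (horizontal axis) from edgeR with 95% intervals (circles and bars, the open circle marking SPOCK1, whose fitted value is no bound), the range over the alternative fits (blue) and the median of the 50 nearest analysed genes (diamonds). Dotted lines mark an absolute log2 fold change of 0.58, which the intervals of SPOCK1, SPARC, MATN3 and FN1 lie wholly beyond.

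The genes around the members were taken as a background for each locus. The median log2 fold change of the 50 nearest analysed genes was -0.23 at SPARC, -0.12 at SPOCK1, 0.19 at FSTL1, 0.33 at TNC, -0.03 at THBS1, 0.08 at FN1 and -0.48 at MATN3. The falls of FSTL1 and TNC thus lay among neighbours that were higher on balance, and that of MATN3 among neighbours that were lower on balance. The part of the neighbourhood in these differences was not tested.

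Levels were compared between members per kilobase of the canonical transcript (RPKM). In controls FN1 had 149 ± 7.78, SPARC 124 ± 19.3, FSTL1 92.8 ± 3.35, TNC 10.6 ± 0.763, SPOCK1 3.97 ± 0.0619, THBS1 1.73 ± 0.116 and MATN3 1.44 ± 0.0868 RPKM (SD, n = 3 each). The ranges of FN1 and SPARC overlapped in controls, and the other neighbours in that order did not. In GCNT1 OE the order was FSTL1 with 67.6 ± 0.719, FN1 with 62.6 ± 5.77, SPARC with 32.9 ± 3.14, TNC with 8.03 ± 0.446, THBS1 with 2.31 ± 0.153 and MATN3 with 0.452 ± 0.0849 RPKM (SD, n = 3 each), with no overlap between neighbours, and SPOCK1 came last, under its floor of 0.0477 RPKM. FSTL1 thus moved from below FN1 and SPARC to above both, and SPOCK1 from above THBS1 and MATN3 to below both. FN1 and FSTL1 were close in GCNT1 OE, where the highest FN1 library had 66.4 RPKM and the lowest FSTL1 library 66.8 RPKM. With all annotated exons merged as the length, which was added once the levels had been seen, SPARC (92.6 ± 14.4 RPKM) stood above FN1 (72.4 ± 3.79 RPKM) in controls, and the rest of the order was the same in both groups.

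**Figure D3:**
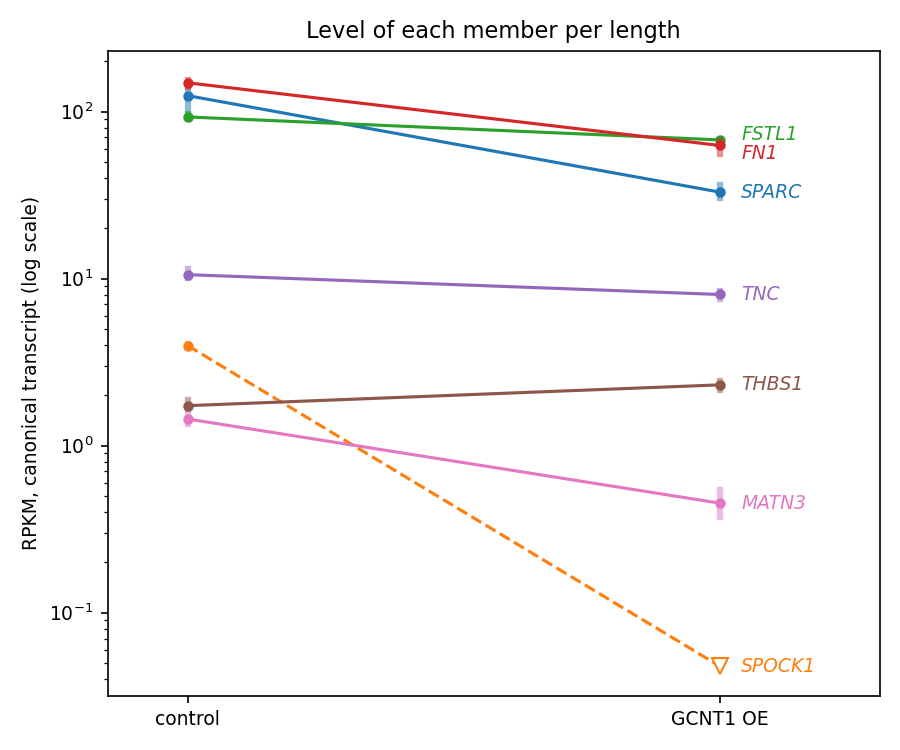
Level of each member per kilobase of canonical transcript (RPKM, log scale) in control and GCNT1 OE, with the mean of 3 libraries as points and the range of the libraries as thick bars. FSTL1 is above FN1 and SPARC in GCNT1 OE, SPOCK1 goes from 3.97 RPKM to under its floor of 0.0477 RPKM (open triangle, an upper limit), and THBS1 is the line that goes up.

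Other genes of the SPARC and follistatin-like kind were represented by SPOCK3, FST and FSTL3, 3 of the 6 listed. All 3 were lower by the adjusted p value alone (29.3% of all genes) and 1 by both thresholds (11.1% of all genes). That gene, FST (follistatin, which neutralises activins), fell from 364 ± 17.9 to 189 ± 5.24 CPM (SD, n = 3 each), with an edgeR log2 fold change of -0.95 (Benjamini-Hochberg adjusted p = 4.76e-09). SPOCK3, the other testican that was analysed, had 11.8 ± 0.544 CPM in controls and 8.20 ± 0.457 CPM in GCNT1 OE (SD, n = 3 each) and its log2 fold change was -0.52 (edgeR Benjamini-Hochberg adjusted p = 0.000724), against a bound of 83.2-fold for SPOCK1. FSTL3 was only just past the adjusted p threshold (log2 fold change -0.24, edgeR Benjamini-Hochberg adjusted p = 0.0487), and its groups overlapped.

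Of 34 other matricellular and adhesive glycoprotein genes, 17 were analysed, of which 5 were higher and 7 lower by both thresholds (8.28% and 11.1% of all genes), with a median log2 fold change of -0.35. The genes that rose were CCN1 (4.02-fold), CCN2 (2.67-fold), EFEMP1 (2.22-fold), FBLN5 (1.71-fold) and MATN2 (1.53-fold). CCN1 and CCN2 are matricellular proteins bound by integrins, and MATN2 is a matrilin like MATN3, which fell. The counts of CCN1 were 1080, 1202 and 1203 in controls and 4745, 5742 and 4424 in GCNT1 OE, with no overlap (edgeR log2 fold change 2.01, SE 0.10, Benjamini-Hochberg adjusted p = 2.44e-09). CCN3, of the same family as CCN1 and CCN2, had 658, 637 and 581 counts in controls and 197, 251 and 294 in GCNT1 OE and fell (edgeR log2 fold change -1.44, Benjamini-Hochberg adjusted p = 7.25e-09). The microfibril genes FBN1 and FBN2 had log2 fold changes of -1.50 and -1.04, and the integrin ligands EDIL3 and MFGE8 -0.86 and -0.76. The fibulins went both ways, with -0.84 for FBLN1 and -0.64 for EFEMP2 against the rises of FBLN5 and EFEMP1 given above. With library size in place of TMM factors, EFEMP2 was just under the fold change threshold (-0.58), which left 6 lower genes. EFEMP2 lost its call in 4 alternative fits, and with single libraries left out its log2 fold change lay between -0.76 and -0.47. RPL30 overlaps MATN2 and MUS81 overlaps EFEMP2 on the opposite strand.

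Collagens known to be bound by SPARC or fibronectin were lower throughout. Of 12 such genes 9 were analysed, all 9 were lower by the adjusted p value alone (29.3% of all genes), 6 by both thresholds (11.1% of all genes), and the median log2 fold change was -1.01. COL5A1 had 300, 319 and 296 counts in controls and 0, 1 and 2 in GCNT1 OE, at least 108-fold lower than the controls by the same floor as for SPOCK1. COL6A3 went from 108 ± 6.03 to 15.2 ± 0.964 CPM and COL6A2 from 412 ± 15.0 to 157 ± 13.3 CPM (SD, n = 3 each), and the edgeR log2 fold changes were -2.83 and -1.39.

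Of 20 genes for receptors of FN1, TNC and THBS1, 15 were analysed. By both thresholds 1 was higher and 2 were lower, a share near the 19.3% of all genes called, and the median log2 fold change was -0.17. ITGB1, the integrin subunit shared by most fibronectin receptors, had a log2 fold change of 0.02 (SE 0.06, edgeR Benjamini-Hochberg adjusted p = 0.757), and ITGA5, its partner in the main fibronectin receptor, 0.21 (edgeR Benjamini-Hochberg adjusted p = 0.00657); both are named outside the rule for named genes. ITGA2, a subunit of a collagen receptor, fell with a log2 fold change of -1.02, and ITGA4 rose by 1.79 from 4, 7 and 6 counts in controls to 13, 27 and 24 counts in GCNT1 OE. ITGB3 had a log2 fold change of -0.60 (edgeR Benjamini-Hochberg adjusted p = 0.00383) that came under the fold change threshold without control replicate 1 (-0.54), without GCNT1 OE replicate 1 (-0.45) and with library size alone (-0.55). For the THBS1 receptor CD47, also outside that rule, the log2 fold change was -0.17 (edgeR Benjamini-Hochberg adjusted p = 0.00783).

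**Figure D4:**
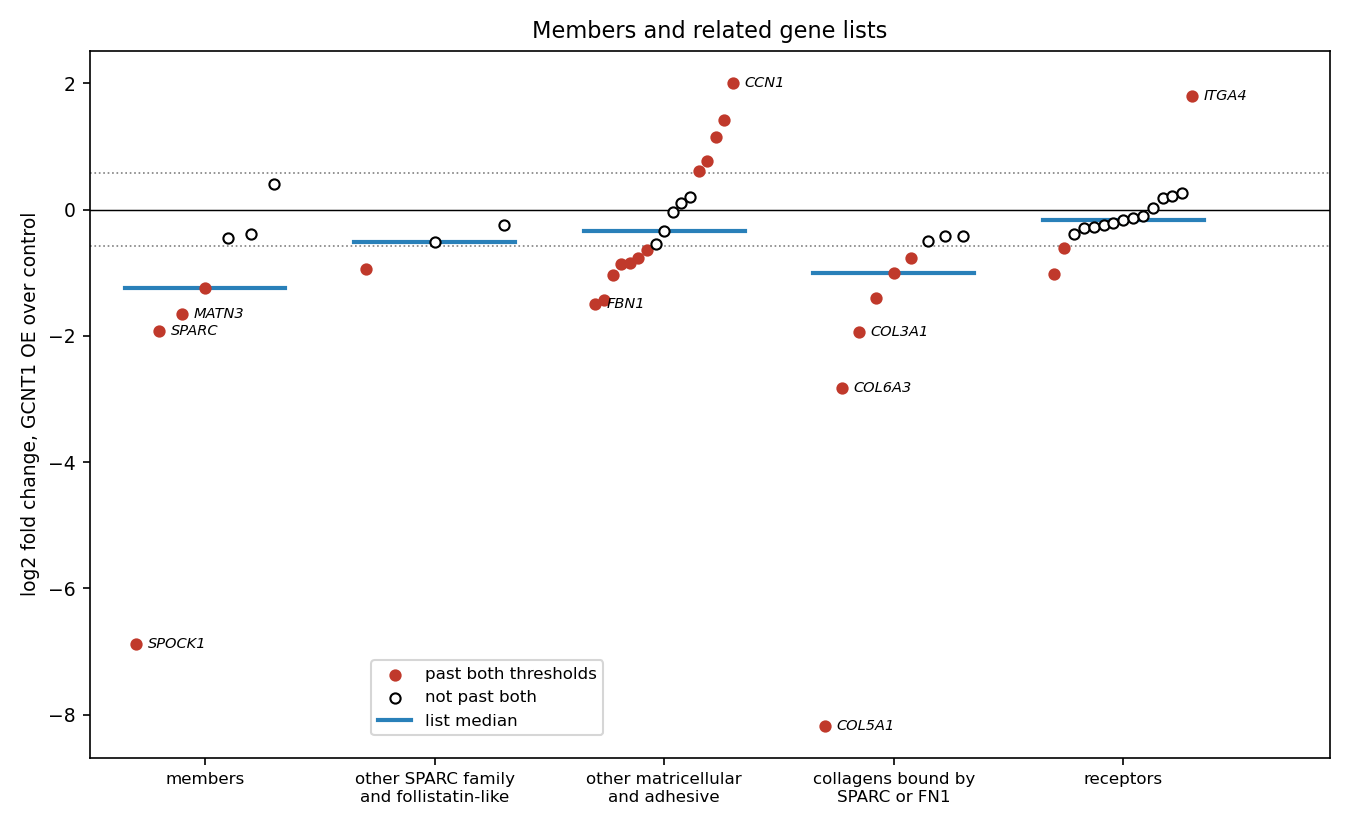
Log2 fold change of GCNT1 OE over control (vertical axis) for each analysed gene of the members and of 4 related lists, with genes past both thresholds in red, other genes open and the list median as a blue line (the fitted values of SPOCK1 and COL5A1 are no bounds). The collagens lie below 0 like 6 of the 7 members, while the other matricellular genes lie on both sides, from FBN1 at -1.50 to CCN1 at 2.01.

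The genes whose pattern over the 6 libraries was most like that of SPARC, by the Euclidean distance between log2 CPM values centred on each gene's mean, were COL3A1 (distance 0.13), XK (0.21) and ANGPTL4 (0.25). COL3A1, the type III collagen, had 2067, 1373 and 1685 counts in controls and 399, 528 and 502 in GCNT1 OE, and like SPARC it was lowest of the controls in control 2 and highest of the GCNT1 OE libraries in GCNT1 OE 2. For FN1 the closest genes were LINC02582 (0.13), PCDH18 (0.14) and LTBP1 (0.14), with log2 fold changes of -1.28, -1.32 and -1.16. Over 2 groups of 3 libraries this likeness rests mainly on the size of the group difference.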

How the data were processed

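Poly(A) RNA of 3 control and 3 GCNT1 OE lines of PC3 cells was sequenced by the authors as stranded single-read libraries. The authors worked in Galaxy, with Cutadapt for trimming, HISAT2 for mapping to hg38 and featureCounts for counting, and deposited raw read counts per gene, unnormalised and unpooled. The annotation, the strand setting and the rule for leaving out low genes are not given in the sources used here. The third-highest library of every gene held 1.01 CPM or more, so genes under about that level are outside the analysis.

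Groups and replicate numbers came from the labels. Counts were fitted in R 4.3.3 with edgeR 4.0.16 (filterByExpr, which kept all 12703 genes, TMM factors, quasi-likelihood test, no block) with Benjamini-Hochberg adjustment over all genes. SE is the absolute log2 fold change divided by the square root of F. The thresholds for calling a gene were 0.05 for the adjusted p and 0.58 for the size of the log2 fold change. Depth was 11392213 to 13825704 counts, at which the floor of 3 counts is 0.213 to 0.259 CPM after TMM scaling (counting error only). Within-group pairs of libraries differed by more than sampling noise (chi-square per degree of freedom 1.65 to 5.61). Alternatives were limma-voom (limma 3.58.1), DESeq2 1.42.0, scaling by library size alone or by RLE factors, a mean of at least 1 CPM or no filter, glmTreat, the replicate block and leaving out every library once. The fits were tested on simulated data.

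Positions and promoters are RefSeq's for GRCh38 and exons and overlaps are those of GENCODE 44. RPKM is TMM-scaled CPM per kilobase of the canonical transcript. Log2 CPM for the distances used a prior count of 2. The members and gene lists were chosen with earlier results of these data known. Named genes were GCNT1, the members, every called gene of the SPARC, follistatin-like and matricellular lists, the 3 called genes of smallest p of the collagen, receptor and TGF-beta lists, and the 3 genes nearest to SPARC and to FN1. Some genes that the rule names or that belong to marker lists are not reported here.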

Additional observations from a re-analysis of the deposited data

How the results depend on the processing

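The 7 members kept their direction in the 13 alternative fits that could differ (no gene was filtered out, so the fit with no filter is the same fit), and SPOCK1, SPARC, MATN3 and FN1 were called and FSTL1, TNC and THBS1 not called in each, with log2 fold changes between -2.04 and -1.82 for SPARC, -1.29 and -1.17 for FN1, -1.80 and -1.55 for MATN3, -0.48 and -0.40 for FSTL1, -0.43 and -0.33 for TNC, and 0.38 and 0.47 for THBS1. The number called was 4 in each, and leaving out each library in turn gave 4 members called (4 to 4) and 2409 to 2511 of all genes. Over all genes, 2457 were called, and glmTreat, which tests against the fold change threshold itself, called 1392 and gave FSTL1, TNC and THBS1 an adjusted p of 1. By the adjusted p alone the count of members was 7 in the other 12. Adding the replicate block gave 2423 genes and 4 members. The block was not used for the values above because same-numbered libraries did not deviate together (mean correlation of deviations -0.13, against 0.06 for different numbers). Among the other named genes, GCNT1 lost its call in 5 alternatives, EFEMP2 and ITGB3 in 4 each, LTBP4 in 3 and MATN2, FBLN5 and MFGE8 in 1 each, and none reversed. Library size in place of TMM moved the median log2 fold change of all genes to 0.06, and by the adjusted p alone 4290 genes were higher and 3144 lower with it, against 3593 and 3721. Depth limits SPOCK1 and COL5A1 to bounds, and ITGA4 and MATN3 rest on few counts.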

Other observations

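The TGF-beta pathway is known to regulate transcription of several matrix genes. All 15 of its listed genes were analysed, with 2 higher and 4 lower by both thresholds (19.3% of all genes in either direction) and a median log2 fold change of -0.09. By the adjusted p alone 5 were higher and 4 lower, a share near the 57.6% of all genes. LTBP1, which holds latent TGF-beta in the matrix, fell from 365 ± 12.9 to 163 ± 11.9 CPM (SD, n = 3 each), an edgeR log2 fold change of -1.16 (Benjamini-Hochberg adjusted p = 2.33e-09). LTBP4 had a log2 fold change of -0.59 (edgeR Benjamini-Hochberg adjusted p = 2.22e-06), which was -0.55 without control replicate 3 and -0.53 with library size in place of TMM factors. With library size 1 gene of the list was lower in place of 4, which left a share near that of all genes, and with the replicate block 3 were lower.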
